A study of Mus musculus with 6 samples.

Results

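Immediate early genes are genes whose transcription starts within minutes of a stimulus and needs no new protein synthesis. In neurons they are switched on by synaptic activity and calcium entry, and in glia and other cells by growth factors, cytokines and stress, through kinase pathways that act on factors such as CREB and serum response factor already bound to DNA. Their messengers are short-lived, so their level in a tissue reflects the last stimuli that the tissue received, handling of the animal and the dissection included. The 10 genes described here were Fos, Fosb, Junb, Egr1, Nr4a1, Npas4, Arc, Ier2, Dusp1 and Btg2. They were chosen by symbol, through the Ensembl identifiers of the deposited tables, and make up 10 of the 35275 genes listed. The rule uses no measured value, although the genes were picked with earlier results of these data known. All 10 passed the filter on low counts.

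The RNA came from whole spinal cord of adult C57BL/6 mice. The Sox2 cKO mice (n = 3) were mGfap-Cre:Sox2fl/fl, in which Cre under the mouse Gfap promoter removes floxed Sox2, a transcription factor gene, from astrocytes. For the control (Ctrl) mice (n = 3) the sample labels give mGfap-Cre:Sox2+/+ as the genotype, the series text gives either the Cre or the floxed alleles, and the methods of the study give Sox2fl/fl littermates without Cre. Whether the controls carried Cre is therefore uncertain. The labels give an age of 90 days in one field and of 80 days in another. According to the methods, mice were anesthetized with ketamine and xylazine and perfused with ice-cold PBS before the cord was put on dry ice. The time of day and the interval from anesthesia to freezing are not given in the sources used here. The deposited columns are numbered and carry no sample name. The even numbers (libraries 2, 4 and 6) were assigned to Ctrl and the odd ones (1, 3 and 5) to Sox2 cKO, after the mouse numbers on a protein blot of the study, and each library is called by its number because its replicate label is not known. Each group held mice of both sexes, which were not matched to library numbers.

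Sox2 itself was examined first. Its normalized level, as counts scaled by TMM to a common library size (CPM), was 19.9, 14.8 and 29.5 in Ctrl libraries 2, 4 and 6, against 3.16, 2.69 and 2.98 in Sox2 cKO libraries 1, 3 and 5. The groups did not overlap, and the log2 fold change was -2.86 ± 0.24 (SE, edgeR adjusted p = 0.00096). Libraries held 21507911 to 28392184 counts. Of 16137 genes tested with edgeR's quasi-likelihood test, 3970 passed an adjusted p of 0.05 (here, called), 1962 higher and 2008 lower in Sox2 cKO. The calls depended on single libraries, and more so in edgeR than in DESeq2. In edgeR, leaving out 1 library gave between 8 calls (without Sox2 cKO library 1) and 6119 calls (without Ctrl library 2). DESeq2 gave between 1981 calls (without Ctrl library 4) and 5624 calls (without Ctrl library 2) in the corresponding fits. Without Sox2 cKO library 1, DESeq2 called 2342 genes. With plain library totals in place of TMM, the median log2 fold change of all genes moved from 0.02 to 0.12, and the split became 2781 higher and 1212 lower. The FPKM values, which also use library totals, gave 2670 higher and 915 lower with limma. Fold changes below are on the TMM scale, so they are relative to the bulk of the genes.

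Among the immediate early genes, only Nr4a1 was called, at 1.40-fold the Ctrl level (edgeR adjusted p = 0.045), and none was called lower. That is 10% of the 10 genes, against 24.6% of all genes tested that were called in either direction, 12.2% higher and 12.4% lower. Fos, Nr4a1 and Npas4 had the largest positive log2 fold changes, of 0.49, 0.48 and 0.50, whereas Fosb and Arc had negative values of -0.44 and -0.28. Egr1 was level, with a log2 fold change of -0.01 and a 95% interval from -0.27 to 0.25. Nr4a1, Btg2 and Npas4 were higher in every Sox2 cKO library than in any Ctrl library. These 3 of 10 genes compare with 22.6% of all genes that lay without overlap on the higher side and 22.1% on the lower side, where no member lay. In bulk tissue, a change in the number of cells of a type cannot be told apart from a change in RNA per cell.

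**Figure D1:**
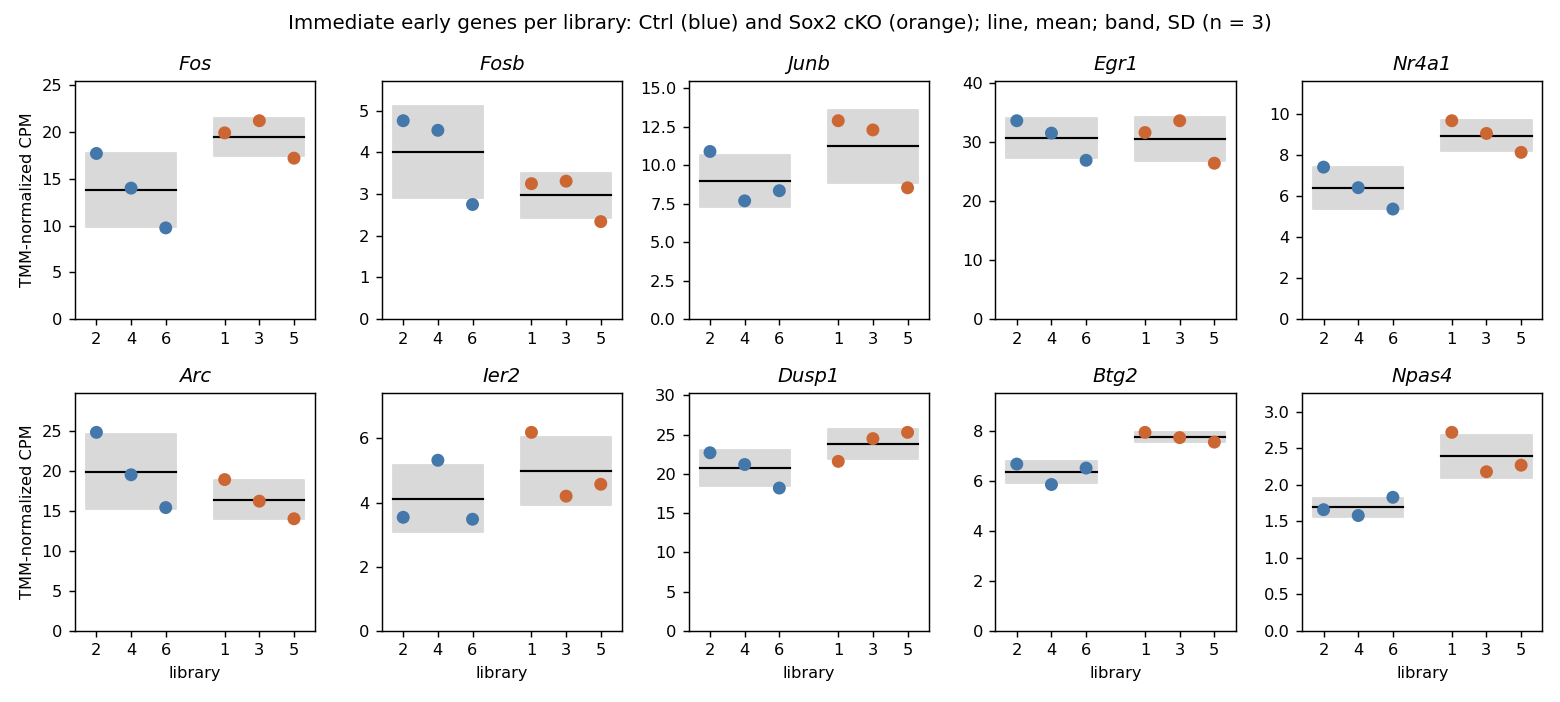
Level of each immediate early gene in each library. The vertical axes give TMM-normalized CPM and start at 0, the horizontal axes give the library number, points are libraries (blue, Ctrl; orange, Sox2 cKO), lines are group means and bands are ± SD (n = 3). The orange points lie above all blue points for Nr4a1, Btg2 and Npas4, and the points of the groups interleave for Egr1.

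Promoter sequences were read from RefSeq windows around the transcription start (GRCm38.p6), which held 7 of the 10 genes. They are shown because CREB sites in the promoters of these genes are a classic route of their induction by calcium and cAMP. The core of the CREB motif, TGACG or CGTCA on either strand, was found in all 7 windows (Fos, Fosb, Junb, Nr4a1, Dusp1, Btg2 and Npas4), against 20.8% of 32851 windows of the same length over all genes. In the runs below, written 5′ to 3′ on the strand of the gene, capitals mark these matches and lower case the bases around them. All lie upstream of the RefSeq start of the window, outside annotated exons. The Nr4a1 and Dusp1 runs lie within the gene spans given below, which reach farther upstream than that start. The Npas4 matches lie within an annotated exon and are not printed.
Fos, chr12:85473751-85473838, plus strand: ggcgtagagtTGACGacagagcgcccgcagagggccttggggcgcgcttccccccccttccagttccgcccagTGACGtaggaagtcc
Fosb, chr7:19310091-19310115, minus strand: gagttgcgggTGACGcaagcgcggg
Junb, chr8:84978840-84978864, minus strand: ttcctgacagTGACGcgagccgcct
Nr4a1, chr15:101266603-101266820, plus strand: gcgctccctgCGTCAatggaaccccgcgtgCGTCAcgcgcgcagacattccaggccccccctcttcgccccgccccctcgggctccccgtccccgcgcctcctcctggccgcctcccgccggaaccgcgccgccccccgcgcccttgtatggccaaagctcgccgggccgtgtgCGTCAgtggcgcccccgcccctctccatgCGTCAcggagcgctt
Dusp1, chr17:26508598-26508673, minus strand: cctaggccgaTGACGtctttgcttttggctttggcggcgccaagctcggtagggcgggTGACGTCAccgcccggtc
Btg2, chr1:134079304-134079331, minus strand: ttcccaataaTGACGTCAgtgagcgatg

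Nr4a1 held 4 matches, the most of the 6 genes printed, and Dusp1 held 3. The full palindrome TGACGTCA, which contains the core on both strands, was present in Dusp1 and Btg2 and in 1.79% of all windows. TATAA, read on both strands as well, was present in Fos, Junb and Npas4 and in 17.5% of all windows. The AP-1 motif TGANTCA (7.81% of all windows) and the CArG box, the motif of serum response factor (1.63%), were in none of the 7 windows. Only these windows were searched, so sites farther from the start would be missed. Egr1, Arc and Ier2 had no window. A match describes the letters of these windows, and binding was not measured here. Of the 7 genes with the core, 6 had positive log2 fold changes and Fosb a negative one, and only Nr4a1 was called.

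The AP-1 subunits were examined first, because Fos and Jun family proteins pair to form this transcription factor. Fos (ENSMUSG00000021250, chromosome 12, 85473890 to 85477273) stood at 17.7, 14 and 9.75 CPM in Ctrl libraries 2, 4 and 6 and at 19.9, 21.2 and 17.2 CPM in Sox2 cKO libraries 1, 3 and 5. Ctrl library 2 lay above Sox2 cKO library 5, so the groups overlapped through those libraries. The means were 13.8 ± 3.99 CPM in Ctrl and 19.4 ± 2.03 CPM in Sox2 cKO (SD, n = 3), a log2 fold change of 0.49 ± 0.18 (SE) that missed the threshold in edgeR (adjusted p = 0.076). Fos was called by DESeq2 (adjusted p = 0.047), without the filter on low counts (edgeR adjusted p = 0.034), and once Ctrl library 2 was left out (log2 fold change 0.70, edgeR adjusted p = 0.0084). After the length correction, its log2 fold change was 0.34 (edgeR adjusted p = 0.19).

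Fosb (ENSMUSG00000003545, chromosome 7, 19302696 to 19310051), whose truncated product accumulates on repeated stimulation, ran the other way. It stood at 4.76, 4.53 and 2.75 CPM in Ctrl libraries 2, 4 and 6 and at 3.25, 3.31 and 2.34 CPM in Sox2 cKO libraries 1, 3 and 5. Ctrl libraries 2 and 4 were above all Sox2 cKO libraries, but Ctrl library 6 was among the low ones. The log2 fold change was -0.44 ± 0.24 (SE, edgeR adjusted p = 0.20), with a 95% interval from -0.98 to 0.10.

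Junb (ENSMUSG00000052837, chromosome 8, 84974484 to 84978718), the Jun-type partner in the list, stood at 10.9, 7.69 and 8.35 CPM in Ctrl libraries 2, 4 and 6. In Sox2 cKO libraries 1, 3 and 5 it stood at 12.9, 12.3 and 8.54 CPM. Sox2 cKO library 5 lay among the Ctrl libraries, and the log2 fold change of 0.32 ± 0.19 (SE) did not pass (edgeR adjusted p = 0.22). Junb overlaps Prdx2, a gene on the opposite strand. The use of strand in the counting is not given in the sources used here, so reads of overlapping genes may not have been separated.

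Egr1, Nr4a1 and Npas4 encode transcription factors of other families. Egr1 (ENSMUSG00000038418, chromosome 18, 34859823 to 34864984), a zinc-finger factor, had the highest CPM of the 10 genes. It stood at 33.6, 31.5 and 26.9 CPM in Ctrl libraries 2, 4 and 6 and at 31.6, 33.6 and 26.4 CPM in Sox2 cKO libraries 1, 3 and 5. The ranges nearly coincided, with means of 30.7 ± 3.45 CPM in Ctrl and 30.5 ± 3.69 CPM in Sox2 cKO (SD, n = 3, edgeR adjusted p = 0.97). Its sign depended on the scaling, and the log2 fold change was 0.09 with library totals or with the length correction.

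Nr4a1 (ENSMUSG00000023034, chromosome 15, 101254269 to 101274795), an orphan nuclear receptor also known as Nur77, was the gene that passed the test. Its level was 7.40, 6.40 and 5.36 CPM in Ctrl libraries 2, 4 and 6, against 9.66, 9.04 and 8.12 CPM in Sox2 cKO libraries 1, 3 and 5. The lowest Sox2 cKO library lay above the highest Ctrl library. The means were 6.39 ± 1.02 and 8.94 ± 0.775 CPM (SD, n = 3), and the log2 fold change was 0.48 ± 0.15 (SE), with a 95% interval from 0.14 to 0.82 (edgeR adjusted p = 0.045, DESeq2 adjusted p = 0.042). The call was lost when any library other than Ctrl library 2 was left out. The edgeR adjusted p was then 0.13 without Ctrl library 4, 0.14 without Ctrl library 6, 0.14 without Sox2 cKO library 1, 0.12 without Sox2 cKO library 3 and 0.059 without Sox2 cKO library 5. It was also lost with the length correction (log2 fold change 0.38, edgeR adjusted p = 0.097) and with the GC correction (0.43, edgeR adjusted p = 0.058).

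Npas4 (ENSMUSG00000045903, chromosome 19, 4984355 to 4990316), a factor known to respond in neurons to calcium entry and to little else, was the least abundant. Its level was 1.66, 1.58 and 1.83 CPM in Ctrl libraries 2, 4 and 6, from 37, 38 and 38 counts. In Sox2 cKO libraries 1, 3 and 5 it was 2.72, 2.18 and 2.27 CPM, from 62, 64 and 60 counts. The groups did not overlap, and the log2 fold change was 0.50 ± 0.21 (SE, edgeR adjusted p = 0.11). With counts this low, the 95% interval ran from 0.02 to 0.97.

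Arc (ENSMUSG00000022602, chromosome 15, 74669083 to 74672570) is the effector of the list that acts at synapses, where its protein takes part in the removal of AMPA receptors. It stood at 24.8, 19.5 and 15.4 CPM in Ctrl libraries 2, 4 and 6 and at 18.9, 16.2 and 14 CPM in Sox2 cKO libraries 1, 3 and 5. Ctrl library 2 was the highest and Sox2 cKO library 5 the lowest, with the others interleaved, and the log2 fold change was -0.28 ± 0.17 (SE, edgeR adjusted p = 0.25). Arc and Fosb had negative values under all 21 alternative settings and were called under none of them.

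Dusp1 and Btg2 encode regulators that limit signalling or growth. Dusp1 (ENSMUSG00000024190, chromosome 17, 26505590 to 26562128), a phosphatase that inactivates MAP kinases, stood at 22.7, 21.2 and 18.2 CPM in Ctrl libraries 2, 4 and 6 and at 21.6, 24.5 and 25.3 CPM in Sox2 cKO libraries 1, 3 and 5. Sox2 cKO library 1 fell between the Ctrl libraries, and the log2 fold change was 0.20 ± 0.11 (SE, edgeR adjusted p = 0.20). Dusp1 overlaps Ergic1 and Gm8225, both on the opposite strand. Btg2 (ENSMUSG00000020423, chromosome 1, 134075170 to 134079120), an antiproliferative protein that promotes removal of poly(A) tails, stood at 6.68, 5.86 and 6.52 CPM in Ctrl libraries 2, 4 and 6. In Sox2 cKO libraries 1, 3 and 5 it stood at 7.95, 7.74 and 7.56 CPM. All Sox2 cKO libraries were above all Ctrl libraries, with a log2 fold change of 0.29 ± 0.13 (SE, edgeR adjusted p = 0.13). Btg2 was called on the FPKM values (limma adjusted p = 0.048 with a pseudocount of 1 and 0.049 with a pseudocount of 0.1).

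Ier2 (ENSMUSG00000053560, chromosome 8, 84661331 to 84662852), a small nuclear protein induced by growth factors, stood at 3.54, 5.32 and 3.48 CPM in Ctrl libraries 2, 4 and 6. In Sox2 cKO libraries 1, 3 and 5 it stood at 6.19, 4.2 and 4.57 CPM. The groups overlapped through Ctrl library 4. The log2 fold change of 0.27 ± 0.22 (SE, edgeR adjusted p = 0.40) became 0.01 with the length correction.

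Over the 10 genes, 7 log2 fold changes were positive and 3 negative, beside 52% positive of all genes tested. The negative ones included Egr1, at -0.01. The median of the 10 genes was 0.28, against 0.02 for all genes tested. The length correction lowered the median of the 10 genes to 0.11 and that of all genes to 0.00, and left none of the 10 called. The transcripts of the 10 genes were shorter than those of the genes tested (median 2608 against 3060 bases) and richer in G and C (56.5% against 49.8%). An unadjusted p under 0.05 was found in edgeR for Fos, Nr4a1 and Npas4, 3 of the 10 genes, against 39.6% of all genes tested. DESeq2 called Fos and Nr4a1, 2 of the 10 genes, against 27.7% of all genes. Without Ctrl library 2, edgeR called 2 of the 10 genes, and without any other library it called none. The corresponding DESeq2 fits gave the same counts. Over all genes, edgeR called 6119 of 16590 without Ctrl library 2 and between 8 and 2665 without 1 of the other libraries. The exact two-sided permutation test of single genes gave p = 0.1 for Nr4a1, Btg2 and Npas4, the smallest value that 3 libraries against 3 allow. It gave 0.2 for Fos, Junb and Dusp1, 0.3 for Fosb and Ier2, 0.4 for Arc and 0.9 for Egr1, each also an exact permutation p.

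**Figure D2:**
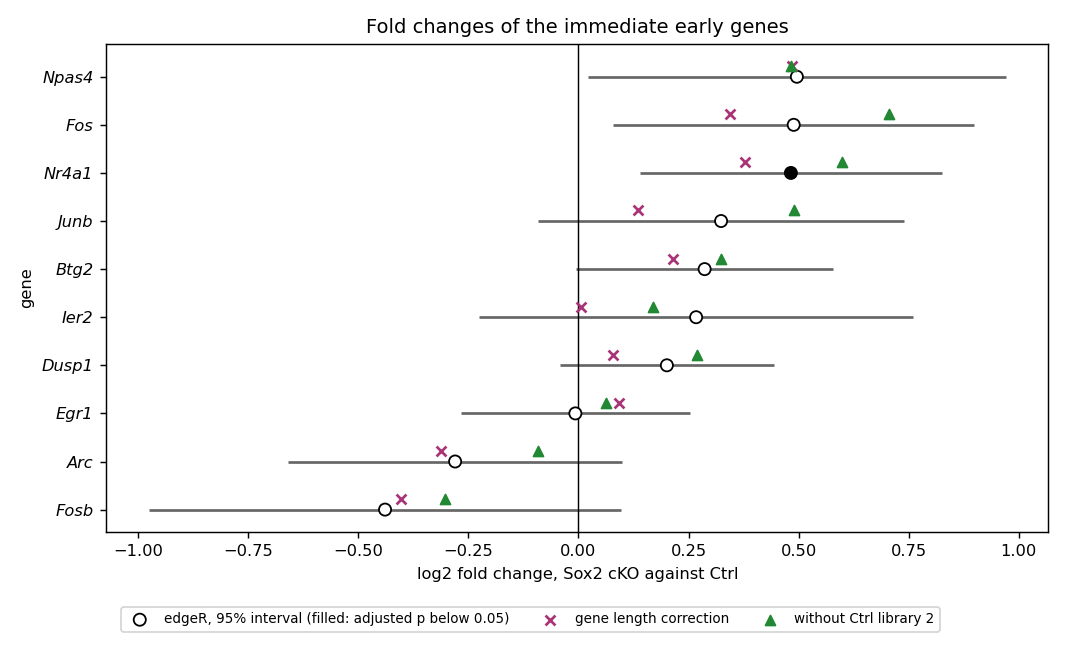
Log2 fold change of each immediate early gene, Sox2 cKO against Ctrl. Circles are edgeR estimates on the TMM scale with 95% intervals (filled for Nr4a1, the gene with an adjusted p under 0.05), crosses are estimates after the gene length correction, and triangles are estimates without Ctrl library 2. Fos moves from 0.49 to 0.70 without that library and to 0.34 with the length correction.

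The abundance of the 10 genes was compared per length, on the FPKM scale and within each group. In Ctrl, Dusp1 had the highest level, at 8.66 ± 1.17 FPKM (SD, n = 3), followed by Egr1 at 6.62 ± 0.909, Fos at 6.37 ± 1.99, Arc at 6.31 ± 1.66 and Junb at 4.73 ± 1.02 FPKM. Each of these overlapped its neighbour in the order. A gap without overlap separated Junb from Ier2 (2.61 ± 0.657 FPKM), Nr4a1 (2.5 ± 0.465 FPKM) and Btg2 (2.24 ± 0.183 FPKM), which overlapped in turn. Fosb (1.04 ± 0.304 FPKM) and Npas4 (0.498 ± 0.0323 FPKM) lay below, each apart from its neighbour, so that the levels spanned 17.4-fold.

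In Sox2 cKO the order was much the same, with a span of 14.1-fold. Dusp1 stood at 10.6 ± 0.655 FPKM (SD, n = 3) and overlapped Fos at 9.54 ± 1.13 FPKM, which was here separated from Egr1 at 7.05 ± 0.952 FPKM. Junb, at 6.35 ± 1.46 FPKM, came before Arc, at 5.56 ± 0.961 FPKM. Nr4a1 (3.74 ± 0.407 FPKM) came before Ier2 (3.40 ± 0.794 FPKM), and these pairs of neighbours overlapped. Btg2 was at 2.92 ± 0.141 FPKM, and Fosb (0.820 ± 0.163 FPKM) now overlapped Npas4 (0.756 ± 0.107 FPKM).

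The level of one member relative to another is free of the library's scaling, and some of these ratios separated the groups. The ratios named here were chosen after their values were seen. Fos to Fosb was 6.63, 5.50 and 6.31 in Ctrl libraries 2, 4 and 6, against 10.9, 11.4 and 13.1 in Sox2 cKO libraries 1, 3 and 5 (ratios of FPKM). Fos to Arc was 1.04, 1.04 and 0.921 in Ctrl and 1.52, 1.89 and 1.78 in Sox2 cKO, in the same order of libraries. Nr4a1 to Arc was 0.369, 0.405 and 0.431 in Ctrl and 0.630, 0.687 and 0.716 in Sox2 cKO. By contrast, Fos to Nr4a1 overlapped, with 2.81, 2.57 and 2.14 in Ctrl and 2.41, 2.75 and 2.49 in Sox2 cKO. Of the 45 pairs of members, 13 had ratios that did not overlap between the groups, or 28.9%, fewer than the 39.7% of all pairs of genes tested. Fosb entered 5 of its 9 ratios without overlap and Arc 4 of 9, whereas Ier2 and Btg2 entered 1 of 9 each.

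The spread between libraries of a group was examined because handling can induce these genes. The SD within groups, pooled over both groups on the log2 CPM scale, was 0.358 for Fosb, 0.324 for Fos, 0.316 for Ier2, 0.296 for Junb and 0.287 for Arc. It was lower for Nr4a1 (0.185), Egr1 (0.172), Dusp1 (0.143), Npas4 (0.138) and Btg2 (0.0747). Sampling of counts alone would give 0.071 for Fos, 0.069 for Arc and 0.053 for Egr1, so their spread was mostly not counting error. For Npas4 and Btg2 the counting values, 0.204 and 0.110, exceeded the observed spread. The median over the 10 genes was 0.236, against 0.155 for all genes tested and 0.165 for the 7112 genes of similar mean count (49.8 to 745 counts), and 7 of the 10 genes lay above the latter. Fos differed most between the groups in its spread, with an SD of 0.431 in Ctrl and 0.153 in Sox2 cKO, a difference that was not tested.

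**Figure D3:**
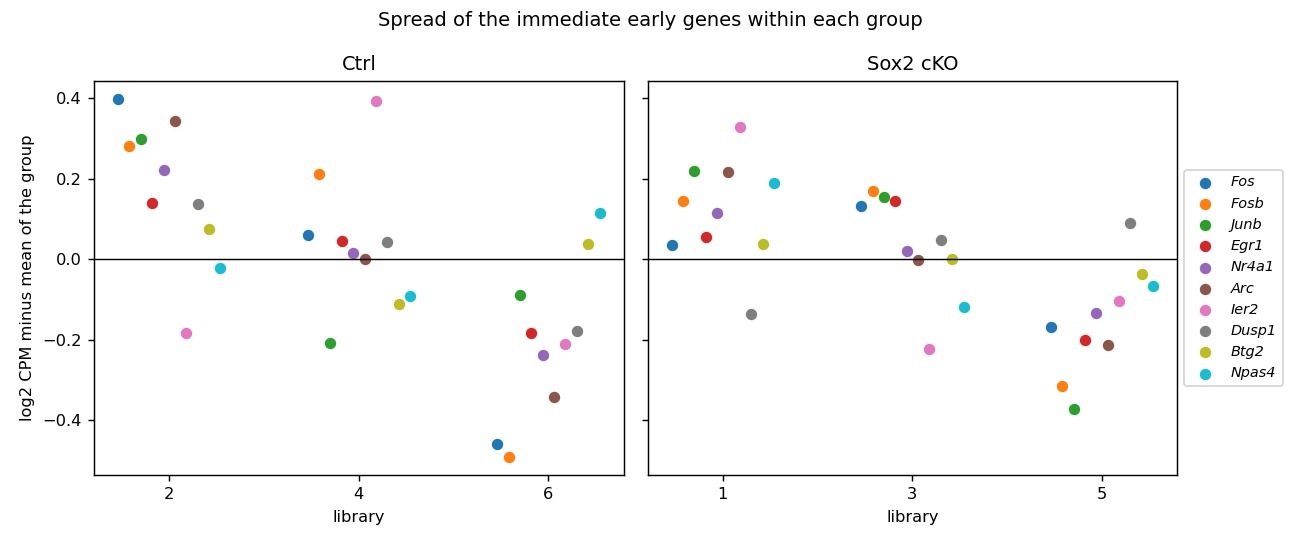
Spread of the immediate early genes within groups. The vertical axis gives the log2 CPM of each gene minus the mean of its group, the horizontal axis gives the library, and each color is a gene. In Ctrl, library 2 is the highest library for 8 of the 10 genes and library 6 the lowest for 7. In Sox2 cKO, library 5 is the lowest for 7.

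The order of the libraries within each group was compared between the genes. Ctrl library 2 was the highest Ctrl library for 8 genes (all but Ier2 and Npas4), and Ctrl library 6 was the lowest for 7 (all but Junb, Btg2 and Npas4). Of all genes tested, 39.2% were highest in Ctrl library 2 and 33.1% were lowest in Ctrl library 6. Sox2 cKO library 1 was the highest for 6 genes and Sox2 cKO library 5 the lowest for 7, against 38.2% and 31.7% of all genes. Dusp1 ran against the others in Sox2 cKO, where it was lowest in library 1 and highest in library 5. Ctrl library 2 was also the highest for 8 genes with library totals, and for 7 with the length correction, and Ctrl library 6 was the lowest for 7 and 6.

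Summed over the 10 genes, the level was 133.8, 117.7 and 98.48 CPM in Ctrl libraries 2, 4 and 6, against 134.6, 134.4 and 116.4 CPM in Sox2 cKO libraries 1, 3 and 5. Ctrl library 2 thus lay with the higher Sox2 cKO libraries, and Sox2 cKO library 5 lay with Ctrl library 4. Over all genes, leaving out Ctrl library 2 raised the edgeR calls from 3970 to 6119. Whether the place of Ctrl library 2 in the sum is particular to the members was not tested. Sums of late activity-induced genes (985.5 CPM), mural cell markers (215.9 CPM) and neutrophil markers (12.7 CPM) were, like the summed members, lowest in Ctrl library 6. Apart from the meningeal fibroblast markers, the other lists were lowest in Ctrl library 2 or 4. The summed CPM of 8 meningeal fibroblast markers was also lowest in Ctrl library 6. It was 614.9, 566.8 and 219.7 in Ctrl libraries 2, 4 and 6, against 600.7, 460.5 and 460.2 in Sox2 cKO libraries 1, 3 and 5, with 0 of the 8 markers called by edgeR or DESeq2, 1 at an unadjusted p under 0.05 in edgeR, and none at 0. Red blood cell markers (5 genes, 0 called by edgeR or DESeq2, 0 at an unadjusted p under 0.05 in edgeR, none at 0) ran the other way in Ctrl, with sums of 57.11, 74.96 and 165.5 CPM against 82.4, 76.82 and 98.45 CPM in Sox2 cKO. Over all genes, edgeR called 24.6% and DESeq2 27.7%, and 39.6% had an unadjusted p under 0.05 in edgeR. The part of meninges, blood or handling in the spread of the members was not tested.

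The genes whose pattern was most like that of the members were sought over the 6 libraries. The profile was the mean, over the 9 members with at least 50 counts on average (all but Npas4), of log2 CPM minus the mean of the group, at 0.19, 0.05 and -0.24 in Ctrl libraries 2, 4 and 6, against 0.11, 0.05 and -0.16 in Sox2 cKO libraries 1, 3 and 5. Of 12084 other genes with at least 100 counts on average, the closest were Cyp4x1 (r = 0.998), Coch (r = 0.995), Zfp772 (r = 0.994), Nmnat1 (r = 0.993) and Ubald2 (r = 0.992), and 385 genes had r above 0.9. The libraries are shared by all genes, the points are 6 and their group means were removed, so these values only describe likeness.

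Other genes of the early response were counted over lists assembled from general knowledge. Of 36 further immediate early and early response genes, 6 were called higher and 2 lower by edgeR, or 22.2%, beside 24.6% of all genes. Their median log2 fold change was 0.25, and 14 of the 36 were higher and 1 lower without overlap of the groups, beside 22.6% and 22.1% of all genes. With library totals in place of TMM, or on FPKM with a pseudocount of 1, the calls were 9 higher and 0 lower. The length correction left 3 called higher and 0 lower.

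Atf3, a stress-induced transcription factor of the ATF family and a marker of injured neurons, had the largest change in this list. It stood at 1.39, 1.79 and 1.35 CPM in Ctrl libraries 2, 4 and 6 and at 6.46, 7.13 and 2.08 CPM in Sox2 cKO libraries 1, 3 and 5. Libraries 1 and 3 were far above Ctrl and library 5 only just above it, and the log2 fold change was 1.78 ± 0.41 (SE, edgeR adjusted p = 0.017). Ier3 rose by 1.23 ± 0.27 on the log2 scale (SE, edgeR adjusted p = 0.015). Gadd45g and Gadd45b, growth arrest and DNA damage response genes, rose by 0.86 ± 0.18 and 0.68 ± 0.18 (edgeR adjusted p = 0.014 and 0.026). Maff, a small Maf factor, rose by 0.85 ± 0.24 (edgeR adjusted p = 0.028), and the kinase gene Plk3 by 0.40 ± 0.13 (edgeR adjusted p = 0.0499). The genes called lower were Sik1, a kinase gene induced by cAMP, at -0.60 ± 0.17 (edgeR adjusted p = 0.033), and Klf6, a zinc-finger factor gene, at -0.31 ± 0.09 (edgeR adjusted p = 0.037). All 8 lost their call in edgeR in at least 1 fit that left out a library. In edgeR, 0 of the 36 genes were called without Ctrl library 4 or without Sox2 cKO library 1. Over all genes, these edgeR fits called only 26 and 8. The corresponding DESeq2 fits called 5 and 4 of the 36 genes, all higher, and 1981 and 2342 of all genes.

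As with Atf3, Sox2 cKO library 5 had the lowest level of neutrophil markers in its group. The same held for summed microglia markers, at 414.1, 312.8 and 277.7 CPM in Sox2 cKO libraries 1, 3 and 5. Meningeal fibroblast markers were lowest there by a narrow margin (460.2 against 460.5 CPM in library 3). Lists other than these and the members were lowest in Sox2 cKO library 1 or 3. The summed CPM of the neutrophil markers was 20.46, 14.88 and 12.7 in Ctrl libraries 2, 4 and 6, against 87.18, 81.97 and 24.29 in Sox2 cKO libraries 1, 3 and 5. Of 8 such markers tested, 7 were called higher by edgeR and 0 lower, or 87.5%, beside 24.6% of all genes. Of the 9 markers listed, 1 was at 0 in some library. Among the Sox2 cKO libraries, library 5 was also the lowest for 7 of the immediate early genes, beside 31.7% of all genes. These 7 were Fos, Fosb, Junb, Egr1, Nr4a1, Arc and Btg2. They thus included Fosb and Arc, with negative log2 fold changes, and Egr1, which was level between the groups. Dusp1 was highest in library 5, and Ier2 and Npas4 were lowest in library 3. The part of neutrophils in these values was not tested.

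**Figure D4:**
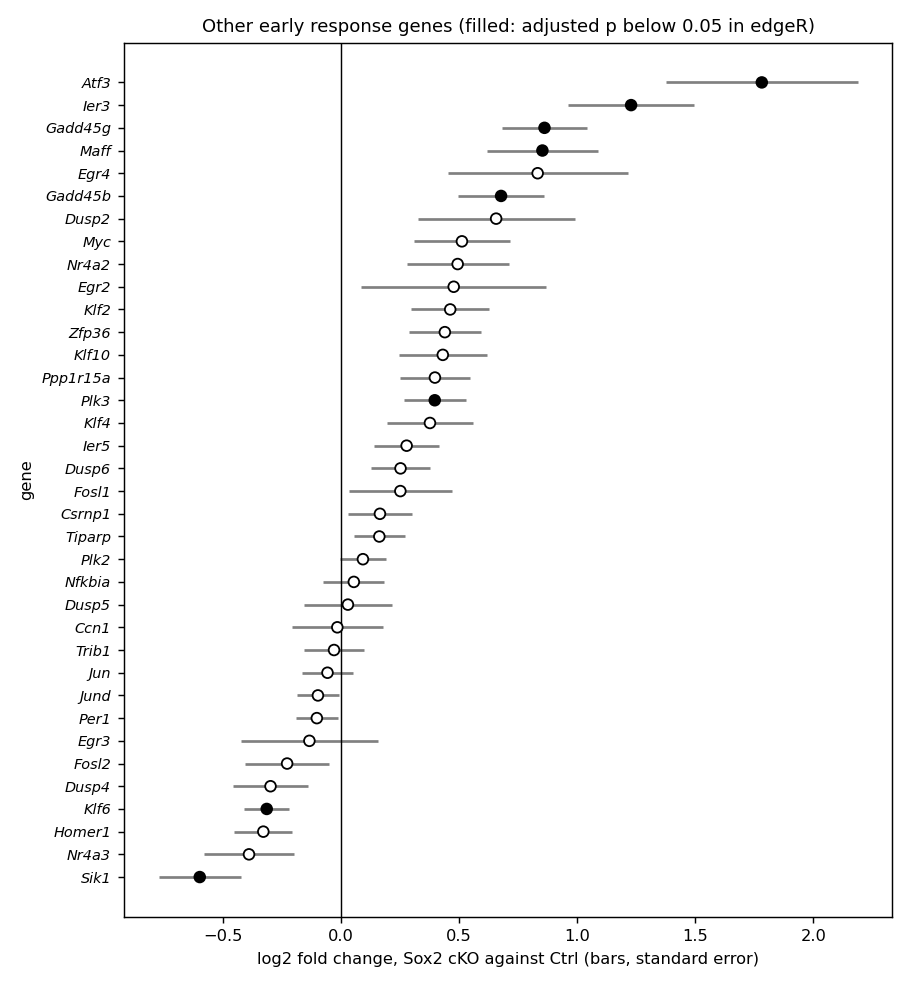
Log2 fold change of 36 further early response genes, Sox2 cKO against Ctrl. Points are edgeR estimates on the TMM scale, bars are standard errors, and filled points have an adjusted p under 0.05. The 6 filled points on the right are Atf3, Ier3, Gadd45g, Maff, Gadd45b and Plk3, and the 2 on the left are Sik1 and Klf6.

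Upstream of the immediate early genes are the receptors, kinases and bound factors that carry the signal. Of 24 such regulators, 0 were called higher and 4 lower by edgeR, or 16.7%, beside 24.6% of all genes. DESeq2 gave the same counts, and an unadjusted p under 0.05 in edgeR was found for 1 higher and 7 lower. The actin-linked coactivator Mrtfb fell by 0.68 ± 0.15 on the log2 scale (SE, edgeR adjusted p = 0.016), and Camk4, a calcium-dependent kinase that phosphorylates CREB, fell by 0.41 ± 0.12 (edgeR adjusted p = 0.035). Ep300, a histone acetyltransferase, fell by 0.41 ± 0.11 (edgeR adjusted p = 0.025), and Creb1, which encodes CREB, fell by 0.38 ± 0.09 (edgeR adjusted p = 0.020). After the length correction none of the 4 was called (edgeR adjusted p = 0.062 for Mrtfb, 0.98 for Camk4, 0.45 for Ep300 and 0.55 for Creb1). With library totals the calls were 2 higher and 3 lower. In edgeR no regulator was called without Ctrl library 4, without Ctrl library 6 or without Sox2 cKO library 1, and 11 were called without Ctrl library 2. Over all genes, these edgeR fits called 26, 1082, 8 and 6119. The corresponding DESeq2 fits called 1, 4, 2 and 9 regulators, all lower except 1 without Ctrl library 2.

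Downstream, genes that follow the immediate early wave in active neurons were counted as late genes. Of 13 tested, 3 were called higher and 0 lower by edgeR, or 23.1%, beside 24.6% of all genes, and Cort of the list did not pass the filter. Sst, the somatostatin gene, rose by 0.83 ± 0.16 on the log2 scale (SE, edgeR adjusted p = 0.013). Gadd45a rose by 0.77 ± 0.17 (edgeR adjusted p = 0.015), and Rgs2, a regulator of G protein signalling, by 0.49 ± 0.11 (edgeR adjusted p = 0.018). The length correction left only Rgs2 called (edgeR adjusted p = 0.026). In edgeR no late gene was called without Ctrl library 4 or without Sox2 cKO library 1, and only 26 and 8 of all genes. DESeq2 called 3 late genes, all higher, in each of the corresponding fits. Bdnf, the growth factor gene most often read as a late sign of activity, lay at 0.24 (edgeR adjusted p = 0.25).

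Genes that respond to stress and stress hormones were read beside the members, since both can change with handling. Of 10 heat shock genes, Hspb1 and Hspe1 were called higher and Hsp90aa1 lower by edgeR, or 30%, beside 24.6% of all genes. After the length correction, Hspb1 (edgeR adjusted p = 0.24) and Hspe1 (edgeR adjusted p = 0.051) were no longer called, whereas Hsp90aa1 was (edgeR adjusted p = 0.028). Hspa1a and Hspa1b, the inducible Hsp70 genes, lay at 0.13 and -0.26 and were not called (edgeR adjusted p = 0.64 and 0.48). Of 11 glucocorticoid-responsive genes, Mt1, Mt2 and Tsc22d3 were called higher, by 1.41, 1.04 and 0.50 on the log2 scale (edgeR adjusted p = 0.010, 0.012 and 0.020), or 27.3% of the list, and all 3 were also called after the length correction. Fkbp5, Sgk1 and Per1 of the same list lay at 0.06, 0.19 and -0.10 and were not called (edgeR adjusted p = 0.83, 0.28 and 0.42). Per1 and Nfkbia of this list also stand among the 36 early response genes above, and metallothionein genes also respond to metals.

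Cell type markers placed the samples in spinal cord, with neuron and oligodendrocyte markers present in every library. Of 15 neuron markers, edgeR called 2 higher and 3 lower, or 33.3%, beside 24.6% of all genes. Their median log2 fold change was -0.03. Without overlap of the groups, 5 were higher and 4 lower, beside 22.6% and 22.1% of all genes. Their sums, which weigh abundant markers most, were 12954 to 13405 CPM in Sox2 cKO and 13733 to 14344 CPM in Ctrl. DESeq2 called 4 of the 15 higher and 4 lower. By edgeR, the largest called changes in each direction were 0.76 for Uchl1 and -0.45 for Nefh on the log2 scale. Mean CPM in Ctrl and Sox2 cKO was 4417 and 3634 for Nefm, and 2121 and 2708 for Snap25. Neither was called by edgeR, but both were by DESeq2 (DESeq2 adjusted p = 0.012 and 0.024). Of 12 astrocyte markers, 1 was called higher and 5 lower, among them Gfap at -1.11. Of 7 oligodendrocyte precursor markers tested, 6 were called lower, whereas 0 of 10 oligodendrocyte markers were called (2 lower at an unadjusted p under 0.05 in edgeR, and 3 lower by DESeq2). In edgeR, microglia markers gave 2 higher and 0 lower of 10, with 2 lower at an unadjusted p under 0.05, and DESeq2 called 2 higher and 2 lower. Both tools called 1 higher and 0 lower of 10 endothelial markers (1 lower at an unadjusted p under 0.05 in edgeR), and 1 higher and 0 lower of 8 mural cell markers (0 lower at an unadjusted p under 0.05). Over all genes, edgeR called 12.2% higher and 12.4% lower, DESeq2 called 27.7%, and 39.6% had an unadjusted p under 0.05 in edgeR. None of these cell type markers was at 0 in any library. Their part in the values of the immediate early genes was not tested.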

How the data were processed

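Directional poly(A) libraries of spinal cord RNA, 3 of Sox2 cKO and 3 of Ctrl mice, were sequenced single-end. The authors mapped the reads on mm10 using STAR 2.5, per the submitters' processing notes, counted reads per gene with HTSeq 0.6.1, and deposited the raw counts. They also deposited FPKM values, computed from these counts with gene length and library total. The members and gene lists were chosen with earlier results of these data known. No other per-sample column was present.

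Counts were fitted in R 4.3.3 with edgeR 4.0.16 (filterByExpr, TMM, quasi-likelihood test, no covariate, Benjamini-Hochberg adjustment over 16137 genes, threshold 0.05). The biological coefficient of variation was 0.119. Names, positions and GC content came from GENCODE M21 (GRCm38, the build mm10), which matched 34490 of 35275 identifiers. In simulated data for this comparison, 15929 genes were run, 200 of them shifted by 1 on the log2 scale. Of those 200, edgeR found 80.7%, and 6.5% of calls fell on unshifted genes. The simulated shift was larger than the log2 fold change of any member, and effects of single libraries were not simulated. These rates therefore may not hold for the members. Counting intervals cover counting error only.

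All 10 members are described. Of the other lists, up to 6 called genes in each direction are named, largest fold first, and up to 4 called genes of marker and stress lists. Uncalled genes of those lists, and the ratios, were chosen after their values were seen. The alternatives were DESeq2 1.42.0, upper quartile or total-count scaling, no filter or at least 10 counts in every library, limma 3.58.1 on log2(FPKM + 1) and log2(FPKM + 0.1) for a mean FPKM of at least 0.5, lowess corrections (span 0.3) for length or GC content, and leaving out each library.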

Additional observations from a re-analysis of the deposited data

How the results depend on the processing

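Fos, Junb, Nr4a1, Ier2, Dusp1, Btg2 and Npas4 had positive log2 fold changes, and Fosb and Arc negative ones, under all 21 alternatives to the edgeR fit. Egr1 changed sign in 10 of 21, at 0.038 with upper quartile normalization, 0.091 with total counts, 0.080 and 0.090 with limma on FPKM (pseudocount 1 and 0.1), 0.091 with the length correction, and between -0.107 and 0.0865 when a library was left out. Nr4a1 was called in 9 of 21 and Fos in 4 of 21. Of the 10 immediate early genes, 2 were called by DESeq2, by edgeR without a filter and by limma on either FPKM scale, and 0 with the length or GC correction. The length correction left 2106 of all genes called, 3 other early response genes, 0 upstream regulators and 1 late gene. With 1 library left out, by edgeR or DESeq2, calls ranged from 8 to 6119 over all genes, 0 to 2 over the immediate early genes, 0 to 11 over the other early response genes, 0 to 11 over the upstream regulators and 0 to 7 over the late genes. Over all genes the highest count came without Ctrl library 2 and the lowest without Sox2 cKO library 1, both by edgeR, and the cause was not tested. No paired analysis was possible because the deposited columns carry no replicate numbers. Npas4, with 37 to 64 counts a library, was limited by depth.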
